A study of Mus musculus with 9 samples.

Results

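Arachidonic acid metabolism was followed through 40 genes in RNA sequencing of mouse ear dermis. The 40 genes were taken by symbol: 11 phospholipases A2, 13 prostanoid enzymes, 6 leukotriene enzymes, 6 epidermal and 12/15-lipoxygenases and 4 peroxide and epoxide enzymes. All 40 were found among the 52550 genes of the count table, and 38 had enough reads to be tested. The 9 libraries came from C57BL/6 (C57BL/6J in the methods) wild type male mice of 8 weeks in 3 groups of 3 libraries each. All mice had ear cream for 5 days and oral gavage of 200 µl for 10 days. VAS+H2O mice received vaseline cream and water. IMQ+H2O mice, the model group, received imiquimod (IMQ) cream and water. IMQ is a Toll-like receptor agonist that produces a psoriasis-like dermatitis. IMQ+XYF mice received IMQ cream and Xiao-Yin-Fang (XYF), a herbal decoction, at 23.3 mg/g, the highest of the study's doses. A group given XYF without IMQ was not analysed here, so the values for XYF are those in IMQ-treated skin. The dermal sheets were made from the ears of more than 1 mouse, and the sources used here do not say whether each library came from separate animals. The p-values therefore measure only the spread between these libraries, which may be technical.

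Arachidonic acid is released from membrane phospholipids by phospholipases A2. Cyclooxygenases turn it into prostaglandin H2, from which terminal synthases make prostaglandins, prostacyclin and thromboxane. 5-lipoxygenase and its partner protein start the leukotriene branch, which is mostly used by leukocytes. The 12-lipoxygenases make hydroperoxides, and in epidermis Alox12b and Aloxe3 act in turn on linoleate-containing ceramides to build the permeability barrier. Glutathione peroxidases reduce lipid hydroperoxides to alcohols. In skin the branches are divided between keratinocytes, fibroblasts, vessels and blood-derived cells, and these were all present in the dermal sheets.

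The libraries held 28756305 to 79836881 counts. A count of 3 corresponded to 0.0373 to 0.103 CPM (read counts at an equal library size, scaled by trimmed mean of M values), and such floors cover counting error only. The dermal label was checked against 6 fibroblast markers, which were present in every library and summed to 10367 to 25353 CPM, but all 8 differentiated keratinocyte markers were also above 0 in every library, so the sheets carried epidermal RNA. The library IMQ+XYF replicate 1 stood apart: its differentiated keratinocyte markers summed to 9269 CPM, against 1089 to 3802 CPM in the other 8 libraries, and its skeletal muscle markers to 61.2 CPM, against 240.1 CPM or more elsewhere. Values without it are given where they differ most, and the plot of the XYF comparison with and without it holds all 38 tested genes. In these bulk samples fewer cells of a type and less RNA per cell cannot be told apart.

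Of the 38 tested genes, 1 was called by IMQ and none by XYF. A gene was called at an adjusted p of 0.05 or lower (Benjamini-Hochberg over all tested genes, edgeR quasi-likelihood test) with a log2 fold change of at least 1 in size. The called gene was Gpx2, a glutathione peroxidase, which rose in IMQ+H2O over VAS+H2O, where 0.994% of all 22430 tested genes were called. Gpx2 was also the 1 gene called in IMQ+XYF against VAS+H2O, beside 1.20% of all genes. With XYF over the model group no member and 0.00892% of all genes were called. DESeq2, run as an alternative, called 3 members by IMQ (Gpx2 and Ggt5 higher, Pla2g5 lower), against 3.88% of all genes. It called 3 by XYF (Pla2g4f, Pla2g5 and Alox12b higher), against 1.14%, and 3 in IMQ+XYF against VAS+H2O (Pla2g4e, Ptges and Gpx2 higher), against 3.46%. The IMQ and the XYF comparison share the IMQ+H2O libraries, so a low or high model group moves them in opposite directions.

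**Figure D1:**
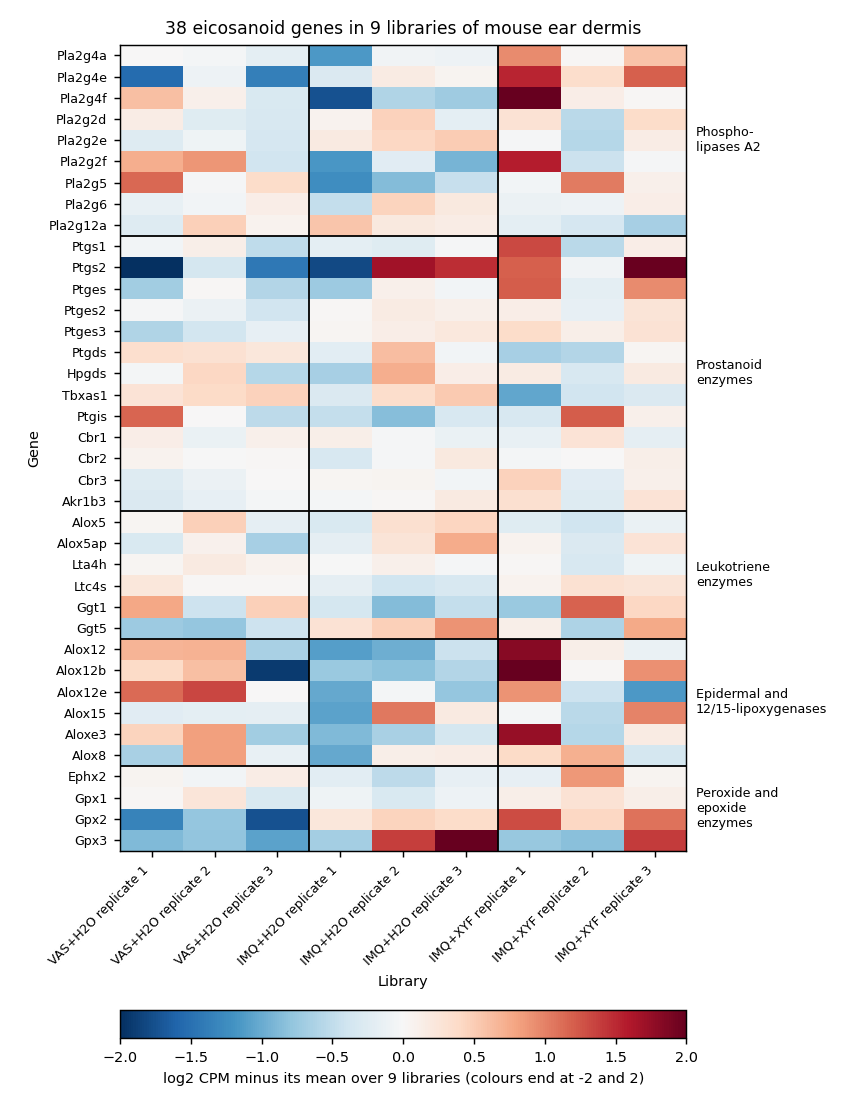
Colours give log2 CPM of each of the 38 tested genes (vertical axis, by role) in each of the 9 libraries (horizontal axis), minus the gene's mean over the libraries. IMQ+XYF replicate 1 is the highest library for Pla2g4f, Pla2g2f, Alox12, Alox12b and Aloxe3, while Gpx2 is blue in all 3 VAS+H2O libraries and red in the other 6.

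At an unadjusted p under 0.05, 6 members were higher and 2 lower with IMQ, where 20.9% of all genes had such a p. With XYF over the model group 12 were higher and 3 lower, where 11.7% of all genes had such a p. In IMQ+XYF against VAS+H2O 6 were higher and 3 lower, beside 18.3%. Groups did not overlap for 11 members with IMQ (31.5% of all genes), for 12 with XYF (18.0%) and for 8 in IMQ+XYF against VAS+H2O (22.1%). The median log2 fold changes of the 38 were -0.03 with IMQ and 0.16 with XYF, against -0.02 and 0.01 over all genes. Without IMQ+XYF replicate 1, the XYF comparison held 6 members higher and 2 lower at an unadjusted p under 0.05, and 9.72% of all genes. The comparison of IMQ+XYF with VAS+H2O then held 4 higher and 4 lower, beside 14.4% of all genes, and that of IMQ+H2O with VAS+H2O, through the shared estimate of spread, 6 higher and 7 lower, beside 22.2%. In the XYF comparison these were Pla2g4f, Pla2g5, Ptgis, Ltc4s, Ggt1 and Ephx2 on the higher side and Pla2g2e and Pla2g12a on the lower.

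**Figure D2:**
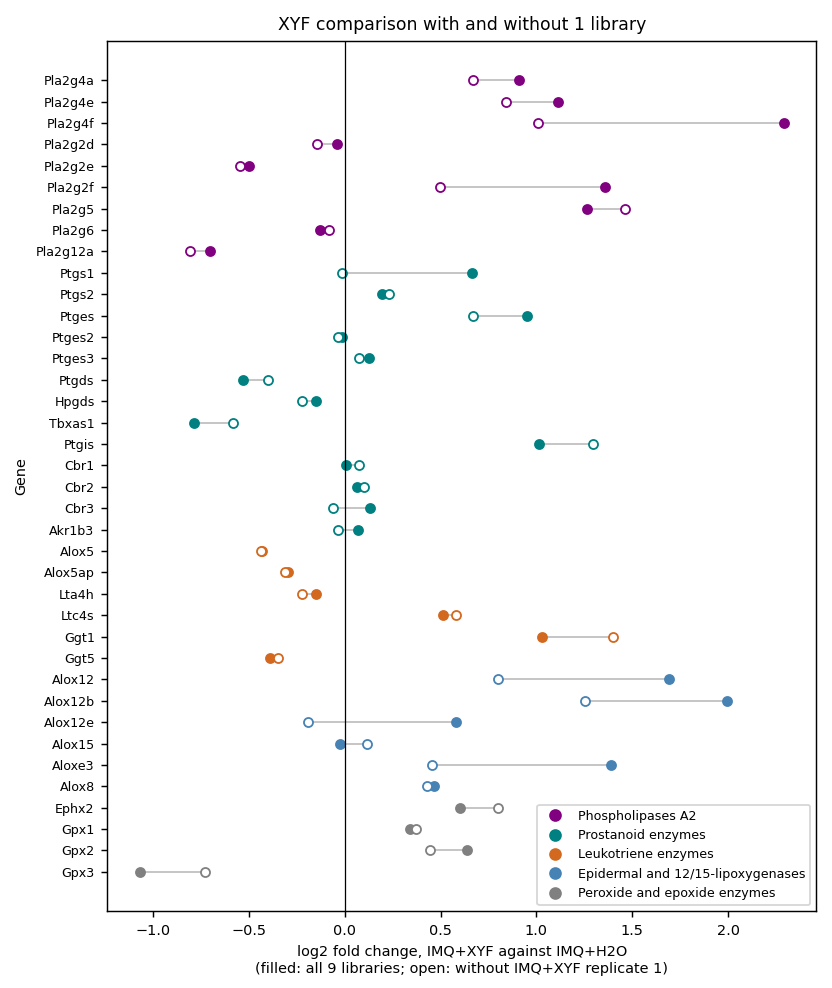
Each of the 38 genes (vertical axis) is placed by its log2 fold change in IMQ+XYF against IMQ+H2O, with all libraries (filled) and without IMQ+XYF replicate 1 (open), coloured by role. Pla2g4f moves from 2.29 to 1.01, Alox12 from 1.69 to 0.80 and Aloxe3 from 1.39 to 0.46, while Pla2g5 and Pla2g12a lie farther from 0 without the library.

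None of the 9 tested phospholipases A2 was called in edgeR, while several lay above the model group after XYF therapy. Their median log2 fold change with XYF was 0.91, with 5 members higher and 2 lower at an unadjusted p under 0.05. Without IMQ+XYF replicate 1 the median was 0.50, with 2 higher and 2 lower. With IMQ the median was 0.12. The cytosolic and the secreted enzymes are described in turn.

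Pla2g4a (ENSMUSG00000056220) encodes the cytosolic phospholipase that prefers arachidonate at the middle position of the glycerol. Its levels were 17.0, 16.4 and 14.7 CPM in VAS+H2O, 7.65, 16.1 and 15.8 CPM in IMQ+H2O, and 32.4, 17.1 and 25.0 CPM in IMQ+XYF. Every IMQ+XYF library lay above every other library, replicate 2 only narrowly. With XYF the log2 fold change of Pla2g4a was 0.91 ± 0.31 (SE), with an adjusted p of 0.375 in edgeR, and 0.67 without IMQ+XYF replicate 1.

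Pla2g4d, Pla2g4e and Pla2g4f are relatives of Pla2g4a known from squamous epithelia and lie side by side on chromosome 2 of GRCm38, between positions 120166412 and 120314165. Pla2g4e, whose product also makes N-acyl phosphatidylethanolamines, was at 9.17, 24.7 and 10.3 CPM in VAS+H2O, 21.8, 29.9 and 27.6 CPM in IMQ+H2O and 76.6, 33.8 and 61.0 CPM in IMQ+XYF. IMQ+XYF lay above both other groups without overlap, whereas IMQ+H2O and VAS+H2O overlapped. Against VAS+H2O the log2 fold change of Pla2g4e in IMQ+XYF was 1.96 ± 0.42, just short of the threshold at an adjusted p of 0.0538 in edgeR. DESeq2 gave an adjusted p of 0.000127, and edgeR called it with upper-quartile scaling (adjusted p 0.0424) or without IMQ+XYF replicate 2 (adjusted p 0.0195). The adjusted p was 0.0519 to 0.173 without any other single library and 0.14 in a fit of the 2 groups alone (edgeR). Against IMQ+H2O its log2 fold change was 1.11 ± 0.41 (adjusted p 0.383, edgeR), and 0.84 without IMQ+XYF replicate 1.

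Pla2g4f had the highest log2 fold change with XYF among the 38 tested genes, and most of it was in a single library. It was at 19.9, 14.1 and 10.6 CPM in VAS+H2O, 3.93, 8.66 and 7.96 CPM in IMQ+H2O and 73.3, 14.3 and 13.3 CPM in IMQ+XYF. The IMQ+H2O libraries lay below all others, and IMQ+XYF replicates 2 and 3 lay within the VAS+H2O range. With XYF its log2 fold change was 2.29 ± 0.67 (adjusted p 0.364 in edgeR, 0.0175 in DESeq2) and 1.01 without IMQ+XYF replicate 1. Pla2g4d was too low to be tested, with 7, 5 and 7 counts in VAS+H2O, 3, 0 and 3 in IMQ+H2O and 59, 9 and 75 in IMQ+XYF.

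The secreted enzymes Pla2g2f, Pla2g2d, Pla2g5 and Pla2g2e form a cluster on chromosome 4, between 138750533 and 138882817. Pla2g5 (ENSMUSG00000041193), which binds membrane phosphatidylcholine well, was at 94.3, 42.0 and 54.8 CPM in VAS+H2O, 18.1, 23.3 and 31.1 CPM in IMQ+H2O and 41.1, 87.6 and 45.7 CPM in IMQ+XYF. All 3 model libraries lay below the other 6, and the VAS+H2O and IMQ+XYF ranges overlapped almost wholly. Its log2 fold change was -1.40 ± 0.38 with IMQ and 1.26 ± 0.38 with XYF (1.46 without IMQ+XYF replicate 1). The adjusted p was 0.0987 and 0.364 in edgeR, and 0.00881 and 0.0483 in DESeq2. Pla2g5 and Alox12 are genes the study itself lists for arachidonic acid metabolism from these libraries, so their direction is not independent evidence.

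Pla2g5 and the summed cartilage markers of the ear were both lowest in the model group. The 6 cartilage markers, of which Matn1 was at 0 in all libraries, summed to 1672, 930 and 1204 CPM in VAS+H2O, 413, 264 and 364 CPM in IMQ+H2O and 509, 1642 and 922 CPM in IMQ+XYF. Per 1000 CPM of these markers Pla2g5 was at 56.4, 45.2 and 45.5 in VAS+H2O, 43.8, 88.2 and 85.4 in IMQ+H2O and 80.7, 53.4 and 49.6 in IMQ+XYF. On this scale the 3 groups overlapped (two-sided exact permutation p of 0.4 with IMQ and 0.7 with XYF, where 0.1 is the smallest possible). With 3 libraries a group these p-values do not show that the ratios were alike. The part of cartilage in the Pla2g5 values was not tested.

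Pla2g2e (ENSMUSG00000028751), an enzyme known from hair follicles, had the opposite course at smaller size. It was at 13.8, 15.6 and 13.1 CPM in VAS+H2O, 18.7, 22.0 and 23.5 CPM in IMQ+H2O and 16.2, 11.1 and 18.2 CPM in IMQ+XYF. The model group lay above both others, and these overlapped. For Pla2g2e the log2 fold change was 0.60 ± 0.19 with IMQ (adjusted p 0.133) and -0.50 ± 0.19 with XYF (adjusted p 0.385, edgeR). The 7 hair follicle markers were all lower with IMQ. They summed to 76.1 to 254 CPM in VAS+H2O, 2.79 to 19.8 CPM in IMQ+H2O and 5.54 to 16.6 CPM in IMQ+XYF. The part of hair follicles in the Pla2g2e values was not tested.

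Pla2g12a, an atypical secreted enzyme, was at 23.2, 38.5 and 29.1 CPM in VAS+H2O, 40.7, 31.7 and 30.8 CPM in IMQ+H2O and 24.2, 21.8 and 17.5 CPM in IMQ+XYF. IMQ+XYF lay below the model group in every library but overlapped VAS+H2O. Its log2 fold change with XYF was -0.70 ± 0.21 (adjusted p 0.364, edgeR) and -0.81 without IMQ+XYF replicate 1. Of the remaining members, Pla2g2f, an enzyme of the upper epidermis, ranged from 17.2 to 114 CPM with overlapping groups. The calcium-independent Pla2g6 ranged from 10.6 to 20.2 CPM. Pla2g10 had 4 counts in 1 VAS+H2O and 1 IMQ+XYF library and none in the other 7, and was not tested.

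**Figure D3:**
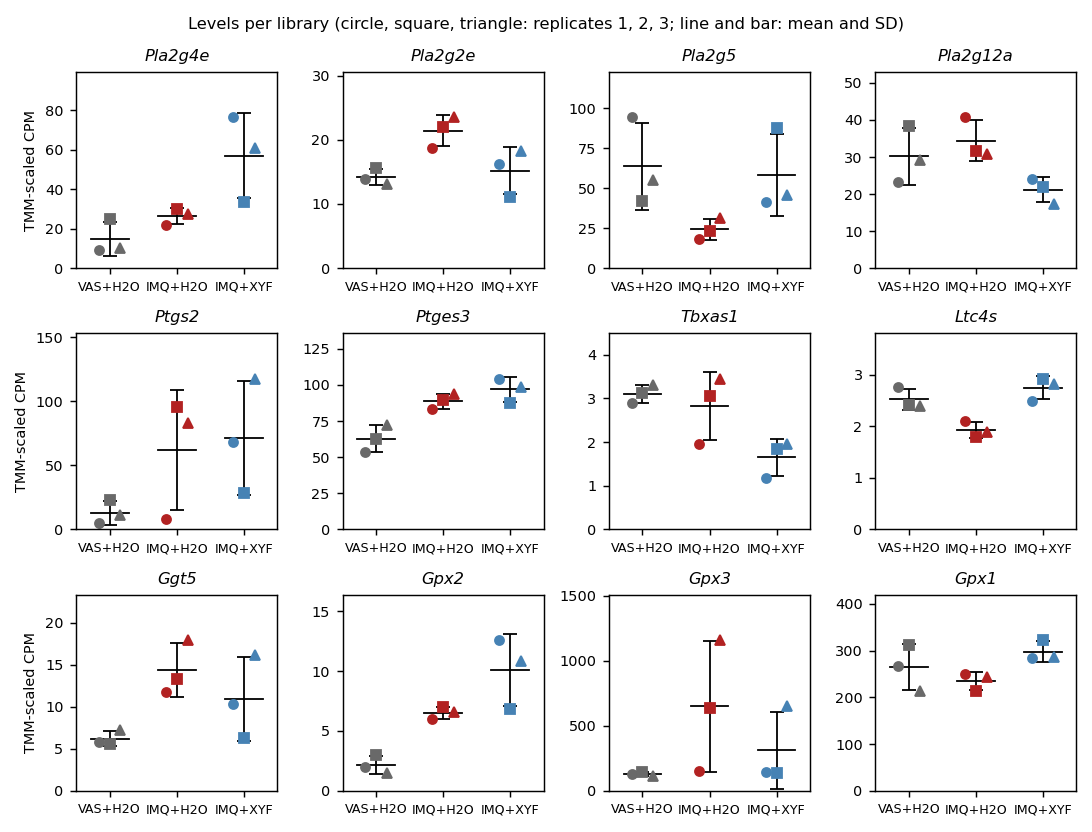
CPM of 12 genes (vertical axes, each from 0) in the 3 groups (horizontal axes), with a point for each library and the mean and SD of each group. Gpx2 is lowest in VAS+H2O (1.51 to 2.97 CPM), Pla2g5 is lowest in IMQ+H2O (18.1 to 31.1 CPM), and Ptgs2 and Gpx3 vary widely within the model group.

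Among the prostanoid enzymes only Ptges3 passed the adjusted p threshold in edgeR, with a small shift. Of the cyclooxygenases, Ptgs2 varied widely within IMQ+H2O and Ptgs1 within IMQ+XYF. Ptgs1, the constitutive cyclooxygenase, was at 28.7 to 44.5 CPM in VAS+H2O, 34.7 to 40.3 CPM in IMQ+H2O and 28.1 to 102 CPM in IMQ+XYF. Ptgs2, the inducible cyclooxygenase, was at 4.71, 23.3 and 11.1 CPM in VAS+H2O, 8.54, 95.3 and 83.1 CPM in IMQ+H2O and 68.1, 28.4 and 118 CPM in IMQ+XYF. IMQ+H2O replicate 1 lay within the VAS+H2O range while the other 2 model libraries lay far above it. Only IMQ+XYF was clear of VAS+H2O, with a log2 fold change of 2.46 ± 0.90 (adjusted p 0.192, edgeR). The values of Ptgs2 were 2.26 ± 0.90 with IMQ (adjusted p 0.201) and 0.20 with XYF (adjusted p 0.943).

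Divided by exon length, Ptgs2 made up 9.19, 30.8 and 24.7% of the summed cyclooxygenase level in VAS+H2O, 16.8, 70.0 and 63.6% in IMQ+H2O and 36.1, 46.1 and 69.0% in IMQ+XYF. Ptgs2 was thus the larger part in 3 of the 6 IMQ-treated libraries and in no vaseline library. The two-sided exact permutation p was 0.3 with IMQ and 0.1, the smallest possible, in IMQ+XYF against VAS+H2O (0.27 after adjustment over 27 tests of shares).

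Ptges3 (ENSMUSG00000071072; chr10:128058954-128077272, plus strand, GRCm38), the cytosolic prostaglandin E synthase that is also the HSP90 co-chaperone p23, was at 53.5, 62.8 and 72.3 CPM in VAS+H2O, 83.0, 89.2 and 93.5 CPM in IMQ+H2O and 104, 87.6 and 98.8 CPM in IMQ+XYF. All 6 IMQ-treated libraries lay above all 3 VAS+H2O libraries. Ptges3 rose in IMQ+XYF against VAS+H2O by a log2 fold change of 0.62 ± 0.13 (adjusted p 0.0475, edgeR), a 1.54-fold difference under the fold limit of a call. The adjusted p of Ptges3 was 0.0730 to 0.147 without any single library other than IMQ+XYF replicate 2, so the test was then missed (edgeR). With IMQ it was 0.50 ± 0.13 (adjusted p 0.0859), and with XYF 0.13 (adjusted p 0.698).

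Ptges, the inducible membrane synthase that works with Ptgs2, was at 50.6 to 83.0 CPM in VAS+H2O, 49.7 to 88.1 CPM in IMQ+H2O and 71.3 to 190 CPM in IMQ+XYF. The groups overlapped, and the log2 fold change of Ptges in IMQ+XYF against VAS+H2O was 1.16 ± 0.37 (adjusted p 0.142 in edgeR, 0.0254 in DESeq2), and 0.87 without IMQ+XYF replicate 1. Tbxas1 and Ptgds had their lowest group means in IMQ+XYF. Tbxas1, thromboxane synthase, was at 2.89, 3.11 and 3.30 CPM in VAS+H2O, 1.96, 3.06 and 3.45 CPM in IMQ+H2O and 1.17, 1.83 and 1.95 CPM in IMQ+XYF. All IMQ+XYF libraries were below all others, IMQ+H2O replicate 1 by a small margin. The log2 fold change of Tbxas1 was -0.78 ± 0.28 against IMQ+H2O (adjusted p 0.379) and -0.91 ± 0.28 against VAS+H2O (adjusted p 0.127, edgeR). Without IMQ+XYF replicate 1 the values of Tbxas1 were -0.58 and -0.71. Markers of some blood-derived cells lay lower beside it, but those of platelets did not as a list. All 8 monocyte and macrophage markers had a log2 fold change below 0 with XYF (median -0.58), and their sums were 591 to 1015 CPM in VAS+H2O, 769 to 1122 CPM in IMQ+H2O and 684 to 747 CPM in IMQ+XYF. The 8 mast cell markers were also all below 0 (median -0.62), with overlapping sums of 269 to 528, 316 to 712 and 232 to 449 CPM in the same order. Of the 4 platelet markers tested, 1 was higher with XYF (0.71) and 3 were lower (median of the 4, -0.08). The platelet sums were 46.6 to 71.0, 37.5 to 70.0 and 36.8 to 64.9 CPM in the same order. The part of these cells in the Tbxas1 values was not tested.

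Ptgds, the lipocalin-type prostaglandin D synthase, was at 8.83, 8.67 and 8.21 CPM in VAS+H2O, 6.03, 10.7 and 6.79 CPM in IMQ+H2O and 4.42, 4.68 and 7.21 CPM in IMQ+XYF. It lay lower in IMQ+XYF than in VAS+H2O without overlap, at a log2 fold change of -0.66 ± 0.26 (adjusted p 0.228, edgeR). Ptgis, prostacyclin synthase, was at 114, 51.3 and 35.3 CPM in VAS+H2O, 36.5, 28.0 and 40.6 CPM in IMQ+H2O and 40.7, 118 and 54.3 CPM in IMQ+XYF. Its highest VAS+H2O and IMQ+XYF libraries were those with the most cartilage RNA in their groups. Per 1000 CPM of the cartilage markers Ptgis was at 68.2, 55.2 and 29.3 in VAS+H2O, 88.3, 106 and 112 in IMQ+H2O and 80.0, 71.6 and 58.9 in IMQ+XYF. On this scale the model group was highest without overlap. The two-sided exact permutation p was 0.1, the smallest possible, against either group (0.38 after adjustment over 57 tests). The cartilage markers themselves summed lowest in the model group, which raises any ratio to them there. The ratio therefore does not show a rise of Ptgis, whose mean CPM was lowest in the model group. The haematopoietic prostaglandin D synthase Hpgds ranged from 6.03 to 15.9 CPM, Ptges2 from 11.2 to 17.5 CPM, the carbonyl reductases Cbr1, Cbr2 and Cbr3 from 43.2 to 59.6, 40.7 to 58.1 and 16.7 to 27.6 CPM, and the aldo-keto reductase Akr1b3 from 33.2 to 50.9 CPM. None of these had an unadjusted p under 0.05 in any comparison.

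None of the 6 leukotriene enzymes was called in edgeR, and Ggt5 came nearest. Their median log2 fold change was -0.01 with IMQ and -0.22 with XYF. Alox5, 5-lipoxygenase, ranged from 7.67 to 13.9 CPM, and Lta4h, which makes leukotriene B4, from 46.1 to 65.2 CPM. Alox5ap, the membrane partner of Alox5, was at 24.4, 31.9 and 19.1 CPM in VAS+H2O, 26.8, 36.1 and 50.7 CPM in IMQ+H2O and 31.6, 24.5 and 36.5 CPM in IMQ+XYF, with overlapping groups. Of its exon bases 13.3% are shared with an antisense gene, and whether the counting used strand is not given in the sources used here. These levels stood beside a change in neutrophil markers, which summed to 130 to 164 CPM in VAS+H2O, 392 to 938 CPM in IMQ+H2O and 243 to 680 CPM in IMQ+XYF. Of the 9 neutrophil markers 7 were above 0 in every library, and Ly6g was at 0 in VAS+H2O. The part of neutrophils or other cells in the Alox5 and Alox5ap values was not tested.

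Ggt5 (ENSMUSG00000006344), the gamma-glutamyltransferase that turns leukotriene C4 into D4, was at 5.77, 5.59 and 7.21 CPM in VAS+H2O, 11.7, 13.3 and 17.9 CPM in IMQ+H2O and 10.4, 6.28 and 16.2 CPM in IMQ+XYF. The model group lay above VAS+H2O without overlap, and IMQ+XYF spanned both. The log2 fold change of Ggt5 with IMQ was 1.21 ± 0.32 (adjusted p 0.0961 in edgeR, 0.00816 in DESeq2), and with XYF it was -0.39 (adjusted p 0.638). Its neighbour Ggt1 on chromosome 10 was at 1.96, 0.862 and 1.59 CPM in VAS+H2O. Ggt1 was at 0.896, 0.631 and 0.819 CPM in IMQ+H2O and 0.684, 2.60 and 1.53 CPM in IMQ+XYF, so its mean was lowest in the model group. The sum of the cartilage markers was also lowest there. Per 1000 CPM of these markers Ggt1 was at 2.17 to 2.39 in the model group. In the other 6 libraries it was at 0.927 to 1.66. The low marker sum raises this ratio in the model group, so it does not show a rise of Ggt1.

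Ltc4s, which makes leukotriene C4, was low in every group, at 2.77, 2.42 and 2.40 CPM in VAS+H2O, 2.10, 1.80 and 1.89 CPM in IMQ+H2O and 2.50, 2.93 and 2.83 CPM in IMQ+XYF. The model libraries were the lowest 3 of the 9, and the other groups overlapped. For Ltc4s the log2 fold change was -0.39 ± 0.18 with IMQ (adjusted p 0.261) and 0.51 ± 0.18 with XYF (adjusted p 0.379, edgeR). An antisense gene covers 26.4% of its exon bases, and reads of the pair cannot be told apart without strand.

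The epidermal lipoxygenases lay lower in the model group and higher after XYF therapy, but none was called in edgeR and most of the second difference was in IMQ+XYF replicate 1. With IMQ 5 of 6 members had a log2 fold change below 0, with a median of -0.84. With XYF 5 of 6 were above 0, with a median of 0.98, which was 0.44 without that library. All 6 lie on chromosome 11, Aloxe3, Alox12b and Alox8 between 69125896 and 69197843, and Alox12, Alox12e and Alox15 between 70241457 and 70352031.

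Alox12 (ENSMUSG00000000320), the platelet-type 12-lipoxygenase that is also made by keratinocytes, was at 10.1, 10.2 and 4.02 CPM in VAS+H2O, 2.93, 3.20 and 4.66 CPM in IMQ+H2O and 22.3, 6.81 and 5.73 CPM in IMQ+XYF. IMQ+XYF lay above the model group without overlap, and VAS+H2O overlapped both. The log2 fold change of Alox12 was -1.16 ± 0.56 with IMQ (adjusted p 0.275) and 1.69 ± 0.57 with XYF (adjusted p 0.371, edgeR).

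Alox12b, the 12R-lipoxygenase of the skin barrier, was at 17.7, 20.7 and 3.60 CPM in VAS+H2O, 8.13, 7.74 and 9.13 CPM in IMQ+H2O and 59.8, 13.9 and 25.8 CPM in IMQ+XYF. VAS+H2O replicate 3 was the lowest of all 9 libraries, so that the first pair of groups overlapped, while all IMQ+XYF libraries lay above the model group. Its log2 fold change with XYF was 1.99 ± 0.66 (adjusted p 0.371 in edgeR, 0.0496 in DESeq2) and 1.26 without IMQ+XYF replicate 1. Aloxe3, which converts the product of Alox12b, was at 15.8, 20.5 and 7.14 CPM in VAS+H2O, 6.30, 7.38 and 9.05 CPM in IMQ+H2O and 38.7, 7.81 and 13.0 CPM in IMQ+XYF, with overlap in both comparisons. Alox15, a 12/15-lipoxygenase of macrophages and eosinophils, ranged from 0.620 to 2.72 CPM, and Alox8 from 0.896 to 3.20 CPM.

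Alox12e (ENSMUSG00000018907), the epidermal-type 12-lipoxygenase, was at 60.5, 69.5 and 27.8 CPM in VAS+H2O, 13.6, 26.8 and 16.0 CPM in IMQ+H2O and 51.3, 20.5 and 12.5 CPM in IMQ+XYF. The model group lay below VAS+H2O, by a small margin between IMQ+H2O replicate 2 and VAS+H2O replicate 3. Its log2 fold change was -1.48 ± 0.54 with IMQ (adjusted p 0.175, edgeR). With XYF it was 0.58 (adjusted p 0.682) and turned to -0.19 without IMQ+XYF replicate 1.

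**Figure D4:**
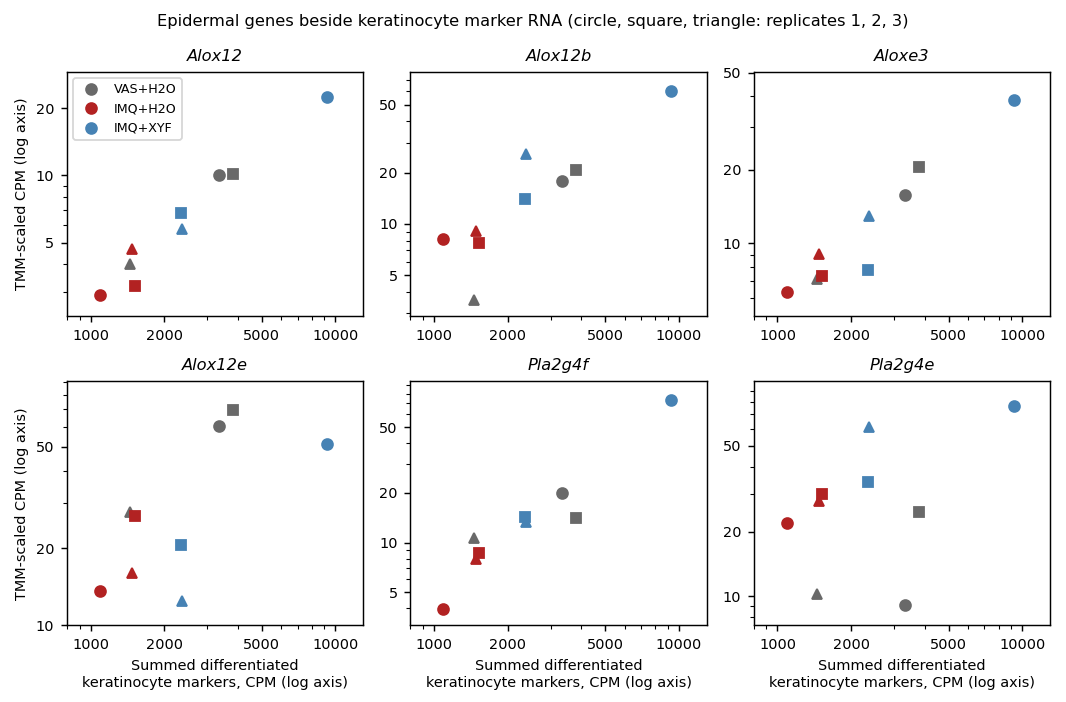
CPM of 6 genes (vertical log axes) against the summed CPM of 8 differentiated keratinocyte markers (horizontal log axes) in the 9 libraries, coloured by group. Alox12 follows the markers across all groups, at 2.10 to 3.15 CPM per 1000 CPM of markers, while Alox12e parts by group and Pla2g4e is lower per marker in VAS+H2O than in the other 2 groups.

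The differentiated keratinocyte markers moved with these genes. They summed to 3329, 3802 and 1451 CPM in VAS+H2O, 1089, 1523 and 1480 CPM in IMQ+H2O and 9269, 2347 and 2366 CPM in IMQ+XYF, and Krt10 made up 47.2 to 66.7% of the sum. Per 1000 CPM of these markers Alox12 was at 2.10 to 3.15 in all 9 libraries, with overlapping groups. Per 1000 CPM of the 6 basal keratinocyte markers it ranged more widely, from 1.26 to 4.42, also with overlapping groups. The keratinocyte share of the sheets and the level per keratinocyte were not measured apart.

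On the scale of the differentiated markers Alox12e did not run level. It was at 18.2, 18.3 and 19.1 per 1000 CPM of markers in VAS+H2O, 12.5, 17.6 and 10.8 in IMQ+H2O and 5.54, 8.75 and 5.26 in IMQ+XYF, so the 3 groups did not overlap. Each comparison gave a two-sided exact permutation p of 0.1, the smallest that 3 against 3 libraries allow (0.38 after adjustment over 57 tests of this kind). Scaled instead by the 6 basal keratinocyte markers, Alox12e was at 26.6, 16.7 and 8.70 in VAS+H2O, 8.11, 10.8 and 9.85 in IMQ+H2O and 6.75, 9.12 and 3.42 in IMQ+XYF, and the groups overlapped. Per 1000 CPM of differentiated markers Pla2g2f was at 18.7 to 20.3 in VAS+H2O, 13.6 to 21.6 in IMQ+H2O and 12.1 to 15.9 in IMQ+XYF. On this scale Alox12b was at 2.48 to 5.44, 5.08 to 7.47 and 5.94 to 10.9 in the same order. Both parted IMQ+XYF from VAS+H2O there (two-sided exact permutation p 0.1, 0.38 after adjustment over 57 tests). Scaled by the basal markers, both overlapped between IMQ+XYF and VAS+H2O (exact permutation p 0.5 for Pla2g2f and 0.3 for Alox12b). On both marker scales Pla2g4e was lower in VAS+H2O than in the 6 IMQ-treated libraries, which was not so in CPM. Per 1000 CPM of differentiated markers it was at 2.75, 6.50 and 7.07 in VAS+H2O, 20.1, 19.7 and 18.7 in IMQ+H2O and 8.26, 14.4 and 25.8 in IMQ+XYF, and per 1000 CPM of basal markers it was at most 5.92 in VAS+H2O and at least 10.1 in the other 6 libraries. The scales were added after the values had been seen.

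**Figure D5:**
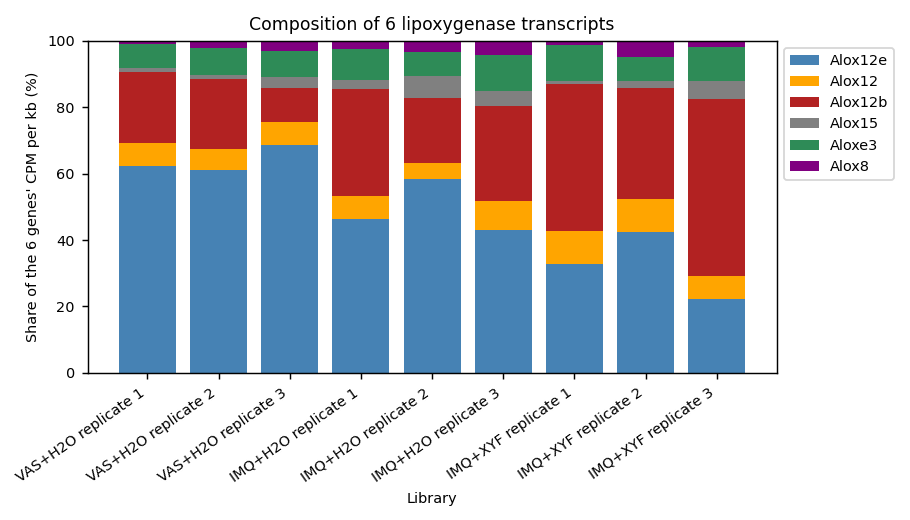
Bars give the share of each of the 6 lipoxygenases in their summed level per exon length (percent, vertical axis) in each library (horizontal axis). Alox12e takes 61.2 to 68.5% in VAS+H2O, 43.1 to 58.3% in IMQ+H2O and 22.1 to 42.5% in IMQ+XYF.

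The makeup of the 6 lipoxygenases was read within each library, where a factor common to all 6 genes cancels. This comparison was not planned in advance. Per exon length Alox12e made up 62.2, 61.2 and 68.5% of the 6 in VAS+H2O (64.0% ± 3.96, SD), 46.4, 58.3 and 43.1% in IMQ+H2O (49.3% ± 8.01) and 32.7, 42.5 and 22.1% in IMQ+XYF (32.5% ± 10.2). The groups did not overlap, but the gaps were narrow. IMQ+H2O replicate 2 was at 58.3% against 61.2% in VAS+H2O replicate 2. IMQ+XYF replicate 2 was at 42.5% against 43.1% in IMQ+H2O replicate 3. The difference was -14.7 percentage points with IMQ, -16.8 with XYF and -31.5 in IMQ+XYF against VAS+H2O. Each had a two-sided exact permutation p of 0.1, the smallest possible, which was 0.27 after adjustment over 27 such tests. Leaving out each library in turn gave -19.2 to -11.6 with IMQ and -21.9 to -11.7 with XYF. Alox12b made up 21.2, 21.2 and 10.3% in VAS+H2O, 32.3, 19.6 and 28.5% in IMQ+H2O and 44.3, 33.5 and 53.3% in IMQ+XYF, and its 3 highest shares were those of IMQ+XYF.

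The promoters of the neighbours Alox12 and Alox12e are shown because these genes parted on the differentiated keratinocyte scale, and those of Gpx2 and Ptges3 because they passed the test. Each run holds 250 bases before and 50 after the start (RefSeq, GRCm38.p6), and capitals mark the GC box GGGCGG or the antioxidant response element core TGACNNNGC on either strand. Promoters were found for 33 of the 40 members. The AP-1 string TGANTCA, the cyclic AMP response element TGACGTCA and the TATA box TATAAA were also searched and do not occur in these 4. The AP-1, cyclic AMP and antioxidant strings can share bases. The regions are chr11:70255321-70255620 (minus strand) for Alox12, chr11:70322481-70322780 (minus) for Alox12e, chr12:76795505-76795804 (minus) for Gpx2 and chr10:128058732-128059031 (plus) for Ptges3.
Alox12: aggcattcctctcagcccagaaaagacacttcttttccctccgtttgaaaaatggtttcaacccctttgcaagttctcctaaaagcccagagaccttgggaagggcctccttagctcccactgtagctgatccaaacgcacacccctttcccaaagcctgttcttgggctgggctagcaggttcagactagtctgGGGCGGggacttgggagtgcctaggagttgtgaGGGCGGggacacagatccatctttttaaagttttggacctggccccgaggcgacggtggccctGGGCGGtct
Alox12e: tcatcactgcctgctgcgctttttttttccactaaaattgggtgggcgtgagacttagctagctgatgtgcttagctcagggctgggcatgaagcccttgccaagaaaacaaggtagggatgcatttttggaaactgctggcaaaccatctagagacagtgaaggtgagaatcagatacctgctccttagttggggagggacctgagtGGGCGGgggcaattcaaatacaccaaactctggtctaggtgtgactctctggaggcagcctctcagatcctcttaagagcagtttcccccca
Gpx2: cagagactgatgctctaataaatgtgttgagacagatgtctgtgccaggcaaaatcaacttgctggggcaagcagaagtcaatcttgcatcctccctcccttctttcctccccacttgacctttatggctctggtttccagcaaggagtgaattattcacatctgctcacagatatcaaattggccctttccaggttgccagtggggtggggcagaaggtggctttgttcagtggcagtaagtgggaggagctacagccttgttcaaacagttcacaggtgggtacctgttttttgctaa
Ptges3: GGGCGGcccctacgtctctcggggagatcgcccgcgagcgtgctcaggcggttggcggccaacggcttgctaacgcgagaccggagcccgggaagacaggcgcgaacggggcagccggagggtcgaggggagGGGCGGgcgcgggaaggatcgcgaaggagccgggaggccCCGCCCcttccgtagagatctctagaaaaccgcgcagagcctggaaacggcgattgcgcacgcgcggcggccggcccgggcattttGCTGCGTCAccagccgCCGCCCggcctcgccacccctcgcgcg
The Alox12 window held 3 GC boxes, that of Alox12e 1 and that of Ptges3 4. A GC box occurred in 35.7% of the 32851 promoters of this length that were searched, from which 1 chromosome was left out. Ptges3 also held 1 antioxidant core, at bases 7 to 15 after the start. Such a core occurred in 12.4% of the same promoters. The Gpx2 window held none of the 5 strings. These are matches of letters and no measured sites.

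Gpx2 (ENSMUSG00000042808; chr12:76792333-76795554, minus strand), an epithelial glutathione peroxidase, was the member with the firmest difference. It was at 2.01, 2.97 and 1.51 CPM in VAS+H2O, 5.96, 6.96 and 6.55 CPM in IMQ+H2O and 12.6, 6.81 and 10.9 CPM in IMQ+XYF. All 6 IMQ-treated libraries lay above all VAS+H2O libraries, and IMQ+XYF overlapped the model group only through its replicate 2. Gpx2 rose 3.01-fold with IMQ, a log2 fold change of 1.59 ± 0.30 (adjusted p 0.0443, edgeR). Over VAS+H2O it rose 4.69-fold in IMQ+XYF, 2.23 ± 0.30 (adjusted p 0.0207). The difference with XYF over the model group was 0.64 ± 0.29 (adjusted p 0.43). The call with IMQ was lost without any 1 of the VAS+H2O or IMQ+H2O libraries and without IMQ+XYF replicate 3 (adjusted p 0.0673 to 0.151), at log2 fold changes of 1.38 to 1.88. The call in IMQ+XYF against VAS+H2O was lost without any 1 VAS+H2O library or without IMQ+XYF replicate 1 or 3 (adjusted p 0.0512 to 0.0839), at log2 fold changes of 2.02 to 2.52.

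The genes whose log2 CPM over the 9 libraries was most like that of Gpx2 were Timm8a1, Klk6 and Slpi, with Pearson r of 0.985, 0.981 and 0.980. For Ptges3 they were Hspd1, Tomm70a and Gm6180, with r of 0.976, 0.972 and 0.966. The 9 points share the 3 groups and their library composition. The stress keratins Krt6a, Krt6b, Krt16 and Krt17 with Sprr1b, all above 0 in every library, summed to 230, 350 and 381 CPM in VAS+H2O, 504, 820 and 569 CPM in IMQ+H2O and 1544, 608 and 3081 CPM in IMQ+XYF. Like Gpx2 they were lowest in VAS+H2O, and their part in the Gpx2 values was not tested.

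Gpx3, the secreted glutathione peroxidase of plasma, was at 133, 142 and 116 CPM in VAS+H2O, 153, 640 and 1160 CPM in IMQ+H2O and 145, 137 and 649 CPM in IMQ+XYF. IMQ+H2O replicates 2 and 3 and IMQ+XYF replicate 3 were high, and the other 6 libraries lay between 116 and 153 CPM. The log2 fold change of Gpx3 was 2.32 ± 0.78 with IMQ (adjusted p 0.15) and -1.07 ± 0.75 with XYF (adjusted p 0.582, edgeR). Per exon length Gpx3 made up 28.2, 26.5 and 30.1% of Gpx1, Gpx2 and Gpx3 together in VAS+H2O, 32.5, 70.1 and 78.9% in IMQ+H2O and 28.4, 25.0 and 64.0% in IMQ+XYF. Gpx1, the ubiquitous form, was at 267, 312 and 214 CPM in VAS+H2O, 249, 214 and 244 CPM in IMQ+H2O and 285, 323 and 286 CPM in IMQ+XYF. The IMQ+XYF libraries lay above the model group, at a log2 fold change of 0.34 ± 0.14 (adjusted p 0.416, edgeR). Ephx2, the soluble epoxide hydrolase, ranged from 6.16 to 16.0 CPM.

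Compared per exon length, the highest members in VAS+H2O were Gpx1 at 184 and Gpx3 at 71.8 CPM per kb on average, followed by Cbr2 at 39.1, Ptges3 at 28.3 and Ptgis at 26.1. Among phospholipases the secreted Pla2g2f and Pla2g5, at 22.2 and 22.1 CPM per kb, led, and among lipoxygenases Alox12e, at 18.6. Pla2g2f and Pla2g5 did not differ beyond their spread. Alox12e was at 6.66 CPM per kb in IMQ+H2O and 9.94 in IMQ+XYF, and Ptges at 16.0, 18.4 and 35.6 in the 3 groups. Tbxas1 was at 0.341 in VAS+H2O.

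Receptors, transporters and other genes around the pathway were followed in 48 further genes, of which 43 were tested. With IMQ 1 rose as a called gene, Fpr2, and none fell, where 0.994% of all genes were called. At an unadjusted p under 0.05, 6 were higher and 4 lower with IMQ, beside 20.9% of all genes. With XYF none was called, beside 0.00892% of all genes. At an unadjusted p under 0.05, 12 were higher and 4 lower with XYF, beside 11.7%. Without IMQ+XYF replicate 1 these were 7 higher and 4 lower, beside 9.72%. In IMQ+XYF against VAS+H2O Fpr2 was called higher and Cysltr2 lower, where 1.20% of all genes were called. At an unadjusted p under 0.05, 9 were higher and 5 lower in that comparison, beside 18.3%. Fpr2, the lipoxin A4 and formyl peptide receptor of neutrophils, was at 0.485, 0.472 and 0.268 CPM in VAS+H2O, 6.23, 7.18 and 11.3 CPM in IMQ+H2O and 7.93, 4.64 and 6.32 CPM in IMQ+XYF. Its log2 fold change was 4.36 ± 0.37 with IMQ (adjusted p 0.00478) and -0.39 with XYF (adjusted p 0.627, edgeR). The neutrophil markers given above moved with Fpr2, and their part was not tested.

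Among the other receptors, Cysltr2, a receptor for cysteinyl leukotrienes, was at 0.534, 0.500 and 1.03 CPM in VAS+H2O, 0.654, 0.509 and 0.527 CPM in IMQ+H2O and 0.212, 0.122 and 0.130 CPM in IMQ+XYF. It was lowest in all IMQ+XYF libraries, close to the floor of 3 counts. Its log2 fold change against VAS+H2O was -2.14 ± 0.43 (adjusted p 0.0468, edgeR), a call that was lost without any 1 of the 9 libraries, and against IMQ+H2O it was -1.82 (adjusted p 0.36). Ltb4r2, the low-affinity leukotriene B4 receptor, which keratinocytes express, was at 1.26, 1.42 and 1.53 CPM in VAS+H2O, 0.827, 1.24 and 0.936 CPM in IMQ+H2O and 7.80, 2.14 and 2.74 CPM in IMQ+XYF. With XYF its log2 fold change was 2.08 ± 0.48 (adjusted p 0.36) and 1.28 without IMQ+XYF replicate 1. Ltb4r1, the high-affinity receptor, had a log2 fold change of 1.36 in IMQ+XYF against VAS+H2O (adjusted p 0.0825). Of 9 prostanoid receptors none was called. Ptger2, a prostaglandin E2 receptor, and Tbxa2r, the thromboxane receptor, had log2 fold changes of -1.03 and -0.73 with XYF (adjusted p 0.379 for both, edgeR) without overlap of the groups, and -0.81 and -0.66 without IMQ+XYF replicate 1, Ptger1 had 0.63, and Ptgir, the prostacyclin receptor, 0.61 with IMQ. Ptgdr, a prostaglandin D2 receptor, had -2.38 in IMQ+XYF against VAS+H2O (adjusted p 0.267).

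Of 8 genes for transport and breakdown none was called. Slco2a1, the prostaglandin uptake carrier, was at 59.4, 74.3 and 76.9 CPM in VAS+H2O, 184, 170 and 253 CPM in IMQ+H2O and 147, 89.7 and 222 CPM in IMQ+XYF. Every IMQ-treated library lay above VAS+H2O, at a log2 fold change of 1.52 ± 0.31 with IMQ (adjusted p 0.0539, edgeR). The 5 endothelial markers were all higher with IMQ too, with sums of 477 to 790 CPM in VAS+H2O, 998 to 1062 CPM in IMQ+H2O and 385 to 945 CPM in IMQ+XYF, and their part in the Slco2a1 values was not tested. Ptgr2, a prostaglandin reductase, had -0.76 with IMQ and 0.60 with XYF, and Abcc1, an exporter of leukotriene C4, -0.33 and 0.35. Of 8 other phospholipases tested, Pla2g7, which breaks down platelet-activating factor, was at 19.6, 25.5 and 22.1 CPM in VAS+H2O, 38.5, 46.3 and 39.8 CPM in IMQ+H2O and 31.9, 26.5 and 29.9 CPM in IMQ+XYF, so that the 3 groups did not overlap. Pla2g7 rose with IMQ by a log2 fold change of 0.89 ± 0.13 (adjusted p 0.0247, edgeR), under the fold limit of a call. The adjusted p of Pla2g7 was 0.0607 to 0.0973 without any 1 VAS+H2O library or without IMQ+H2O replicate 2 or 3 (edgeR). With XYF it was -0.49 ± 0.13 (adjusted p 0.364, edgeR). Plb1 had 1.36 with XYF and Plaat3 -0.70 in IMQ+XYF against VAS+H2O.

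Among cytochrome P450 genes 4 of 8 were tested. Cyp2b19, a keratinocyte epoxygenase of arachidonic acid, was at 90.7, 120 and 128 CPM in VAS+H2O, 50.8, 55.4 and 58.1 CPM in IMQ+H2O and 66.5, 64.7 and 39.9 CPM in IMQ+XYF. All IMQ-treated libraries lay below VAS+H2O, at a log2 fold change of -1.04 ± 0.20 with IMQ (adjusted p 0.0507) and -0.98 ± 0.20 in IMQ+XYF against VAS+H2O (adjusted p 0.0502, edgeR), both just short of the threshold. Cyp4f18, which inactivates leukotriene B4 in neutrophils, had 1.93 with IMQ (adjusted p 0.0792), Cyp2j6 -0.33, and Cyp2j9 -0.64 in IMQ+XYF against VAS+H2O. Of the 9 acylceramide genes that act beside Alox12b and Aloxe3 in the barrier none was called. Their median log2 fold change was -0.06 with IMQ and 1.03 with XYF, and 0.46 with XYF without IMQ+XYF replicate 1. With all libraries Cers3 had 1.68, Abca12 1.54, Nipal4 1.42 and Pnpla1 1.25 (adjusted p 0.364 to 0.395, edgeR), and without that library 1.13, 0.98, 0.46 and 0.47.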

How the data were processed

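Total RNA of ear dermis was sequenced in 9 libraries. The authors aligned reads to GRCm38 with STAR (version 2.5 in the submitters' processing notes) and, per the methods, assembled transcripts with StringTie and tested them with DESeq2. The notes also list FastQC, Cuffnorm and DESeq 1.22.1. The deposited values are raw counts per gene, with gene symbols. The counting tool, the treatment of reads that map to several genes and the use of strand are not given in the sources used here, so values of overlapping genes and close relatives are uncertain. The labels call the libraries strand-specific, while the methods name a TruSeq version 2 kit.

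Members and lists were chosen with earlier results of these data known. Groups came from sample titles. Counts were filtered (filterByExpr, minimum count 10), scaled by trimmed mean of M values and fitted with the quasi-likelihood test of edgeR 4.0.16 in R 4.3.3 across all 9 libraries, 1 coefficient per group, with Benjamini-Hochberg adjustment over 22430 genes. DESeq2 1.42.0 was an alternative. Within groups, libraries differed by 37.5 to 218 times sampling noise (chi-square per degree of freedom), so no library was a copy of another, which does not show that they came from separate animals. The common coefficient of variation was 0.296. Exon lengths for levels per kb came from the GENCODE vM21 annotation of GRCm38, as the union of exons, which for Gpx2 covers the whole gene and lowers its level per kb. Members were described in full if called or if they were Alox12 or Pla2g5. They were also described in full if they had an unadjusted p under 0.05 with groups that did not overlap in any comparison. Ptges, Ptgs1, Ptgis, Alox5ap, Aloxe3, Pla2g4d and Ggt1 were given per library or group after their values were seen. Shares and marker scales were not planned in advance. They were compared by two-sided exact permutation tests, whose smallest p with 3 against 3 libraries is 0.1.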

Additional observations from a re-analysis of the deposited data

How the results depend on the processing

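Alternatives were DESeq2, other scaling factors, no filter on low counts, no mitochondrial genes, fits of only the 2 groups compared, the replicate number as a block, no fold threshold and leaving out each library in turn. The number of members called by IMQ was 1 and became 3 with DESeq2, 2 in the 2-group fit, 0 with the replicate block and 0 to 2 without single libraries. By XYF it was 0 and became 3 with DESeq2, and it was 0 under all other alternatives. In IMQ+XYF against VAS+H2O it was 1 and became 3 with DESeq2, 2 with upper-quartile factors (Pla2g4e added), 2 with no fold threshold (Ptges3 added), 0 in the 2-group fit, 0 with the replicate block and 0 to 4 without single libraries. Of the pathway genes outside the 40, 1 was called by IMQ, and this became 4 with DESeq2, 2 with DESeq2 size factors in edgeR, with upper-quartile factors, without mitochondrial genes and with no fold threshold, 3 in the 2-group fit, and 1 to 4 without single libraries. By XYF it was 0, and 3 with DESeq2. In IMQ+XYF against VAS+H2O it was 2 and became 7 with DESeq2, 1 with no filter, in the 2-group fit and with the replicate block, and 1 to 7 without single libraries. DESeq2 called 3.88% of all genes by IMQ, 1.14% by XYF and 3.46% in IMQ+XYF against VAS+H2O. Without IMQ+XYF replicate 1, edgeR called 315, 1 and 25 of 22976 genes in the same order. The main fit called 223, 2 and 270 of 22430. Shares of all genes under the other alternatives are not given here, so their counts are no result about these genes.

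The log2 fold changes of 18 members in 3 comparisons were recomputed under 16 alternatives each. Of these 864 values 827 kept direction and side of the threshold, 15 lost it (all of Gpx2), 11 gained it and 11 reversed, all when a library was left out. The ranges without single libraries were -0.42 to 0.030 for Ptgds and -0.28 to 0.071 for Tbxas1 with IMQ, -0.37 to 0.64 for Ptgs2 and -0.19 to 0.94 for Alox12e with XYF, and in IMQ+XYF against VAS+H2O -0.10 to 1.59 for Pla2g4f, -0.049 to 0.33 for Pla2g2e, -0.51 to 0.26 for Pla2g5 and -0.36 to 0.86 for Alox12. The cause was not tested. The replicate numbers are not said to mark a shared animal, litter or day. Deviations from the group means correlated at -0.18 to 0.12 within a number (9 pairs, 1 over 0.1). Between numbers they correlated at -0.16 to 0.28 (18 pairs, 5 over 0.1). The deviations sum to 0 within each group, so these correlations cannot settle whether libraries of the same number were paired. With the replicate block Gpx2 had an adjusted p of 0.0981 with IMQ and 0.0628 in IMQ+XYF against VAS+H2O, and in the 2-group fit 0.0659 in the latter (edgeR).

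Depth limits Pla2g4d, Pla2g10 and Cysltr2, which have few counts. With 3 libraries a group, an adjusted p above the threshold does not show that levels were alike.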
